A study of Mus musculus with 12 samples.

Results

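The insulin-like growth factor (IGF) axis of MC38, a colon carcinoma line of the mouse, was examined through 10 genes chosen by name: the ligands Igf1 and Igf2, the receptor Igf1r, the adaptors Irs1 and Irs2, and the binding proteins Igfbp3, Igfbp4, Igfbp5, Igfbp6 and Igfbp7. All 10 were measured, among 18193 genes in total. The arrays carried 27 probe sets for them, of which the brightest over all arrays stood for each gene. Igfbp4 had 6 probe sets, Igf1r 5, Igf1 4, Igfbp7 3, Igf2, Igfbp3 and Igfbp5 2 each, and Irs1, Irs2 and Igfbp6 1 each.

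The 4 groups, each of 3 arrays labelled as biological replicates, were MC38 monolayers in DMSO for 24 h, in 100 nM GDC-0623 for 24 h, in DMSO for 72 h and in 100 nM GDC-0623 for 72 h. GDC-0623 inhibits MEK, the kinase that activates ERK, and DMSO is its solvent. The same single line was used throughout, so other colon carcinoma lines are not represented. The comparisons address how the inhibitor acts on tumor cells alone, at an early and at a late time.

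IGF-1 and IGF-2 bind the receptor tyrosine kinase IGF1R, which recruits and phosphorylates the insulin receptor substrates IRS1 and IRS2. These scaffold proteins connect the receptor to PI3K and AKT, and the receptor also feeds the RAS, MEK and ERK cascade. Secreted binding proteins hold the ligands outside the cell and can block or prolong their action; IGFBP-6 prefers IGF-2, and IGFBP-7 binds IGFs only weakly. In the intestine, IGF signaling is known as a growth signal of epithelium and of the surrounding mesenchyme.

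Promoter sequences of 4 of the 10 members are shown as the 250 bases before the start site in the RefSeq promoter table (build GRCm38.p6, strand of the gene). Igfbp4 lay at chr11:99040994-99041243 on the plus strand, Igfbp6 at chr15:102143936-102144185 on the plus strand, Igfbp7 at chr5:77408046-77408295 on the minus strand and Irs1 at chr1:82291440-82291689 on the minus strand. Capitals mark TATAAA in Igfbp4, CCAAT in Igfbp6, GGGCGG or its complement CCGCCC in Igfbp7, and GGGCGG and CACGTG in Irs1.
Igfbp4: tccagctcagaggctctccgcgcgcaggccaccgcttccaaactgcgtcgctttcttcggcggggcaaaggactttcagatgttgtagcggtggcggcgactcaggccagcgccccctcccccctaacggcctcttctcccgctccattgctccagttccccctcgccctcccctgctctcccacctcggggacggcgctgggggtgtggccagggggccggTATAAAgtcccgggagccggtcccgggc
Igfbp6: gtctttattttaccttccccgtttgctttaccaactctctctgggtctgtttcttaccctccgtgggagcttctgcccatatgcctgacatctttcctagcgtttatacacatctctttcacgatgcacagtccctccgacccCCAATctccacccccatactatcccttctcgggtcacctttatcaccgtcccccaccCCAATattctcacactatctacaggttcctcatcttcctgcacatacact
Igfbp7: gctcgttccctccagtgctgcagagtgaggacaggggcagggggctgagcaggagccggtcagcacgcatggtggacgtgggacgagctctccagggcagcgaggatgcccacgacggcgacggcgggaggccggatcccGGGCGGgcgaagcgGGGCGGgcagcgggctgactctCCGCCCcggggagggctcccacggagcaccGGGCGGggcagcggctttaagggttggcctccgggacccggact
Irs1: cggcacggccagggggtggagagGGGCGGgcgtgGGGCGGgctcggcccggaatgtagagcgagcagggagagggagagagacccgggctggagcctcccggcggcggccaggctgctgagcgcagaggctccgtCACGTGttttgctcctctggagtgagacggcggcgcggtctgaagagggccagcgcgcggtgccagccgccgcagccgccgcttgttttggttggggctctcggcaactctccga

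Igfbp6, Igfbp7 and Irs1 begin just after these bases, and the Igfbp4 promoter shown lies inside the annotated gene, chr11:99040005-99052655. Igfbp4 had a TATA box, TATAAA, 28 bases before its start. The Igfbp6 promoter also matched TATAAA, on the opposite strand 148 bases before its start, without capitals above. Igfbp6 had CCAAT 107 and 50 bases before its start, and Igfbp7 had 4 GC boxes between 110 and 44 bases before its start. Irs1 had the E-box CACGTG at 115 bases and Irs2 had it at 44 bases. All 10 members were found in the promoter table, with 13 promoters because Igf2 had 4. Searched on both strands, TATAAA was in 2 of these 13 and in 12.4% of all 32851 promoters of the same length, GGGCGG in 6 and 32.7%, CCAAT in 4 and 33.8%, and CACGTG in 2 and 6.02%. The AP-1 motif TGANTCA was in 1 of the 13, that of Igf1, and in 6.75% of all. The FoxO motif GTAAACA and the ETS motif CCGGAAG were in none of the 13, against 3.17% and 6.91% of all. A match describes the letters only.

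Expression is given on the log2 scale, as the authors processed it with RMA, which brings all arrays to a shared distribution and makes no detection call. Probe sets under about 5 are dim, and a fold change from such a level may be understated. A gene is called where the adjusted p of the limma test over 45037 probe sets is under 0.05. Bulk RNA cannot tell fewer cells from less RNA per cell. Array medians lay between 4.63 and 4.70, and GDC-0623 replicate 1 at 72 h stood apart on the first principal component (77.4, against 44.8 and 49.8 for the others of its group). Egr1 and Dusp6, transcripts that report ERK activity, fell by 4.90 and 2.12 at 24 h and by 5.57 and 1.49 at 72 h. Of 8 markers of colon epithelium, among them Epcam, Cdh1, Krt20 and Vil1, none reached a mean of 6 over the 12 arrays, so these defining transcripts of the labelled tissue were low or absent.

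With GDC-0623, Igfbp6 rose at both times, Igf2 and Igfbp4 rose at 72 h and Igfbp3 fell at 24 h. Of these calls, only those of Igfbp6 held in every alternative fit given below, and Igfbp3 was dim on every array. Igf1, Igf1r, Irs1 and Irs2 were not called at either time. At 24 h, 1 of the 10 members was higher and 1 was lower, where 13.3% of all genes were higher and 8.23% lower. At 72 h, 3 members were higher and none was lower, where 13.8% of all genes were higher and 12.4% lower. At an unadjusted p under 0.05, 4 members (Igf1r, Irs1, Irs2 and Igfbp3) were lower at 24 h, where 16.2% of all genes were, and 1 (Igf1r) at 72 h, where 19.7% were. The median log2 fold change of the 10 members was −0.04 at 24 h and 0.12 at 72 h, and that of all genes was −0.03 at both times.

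**Figure D1:**
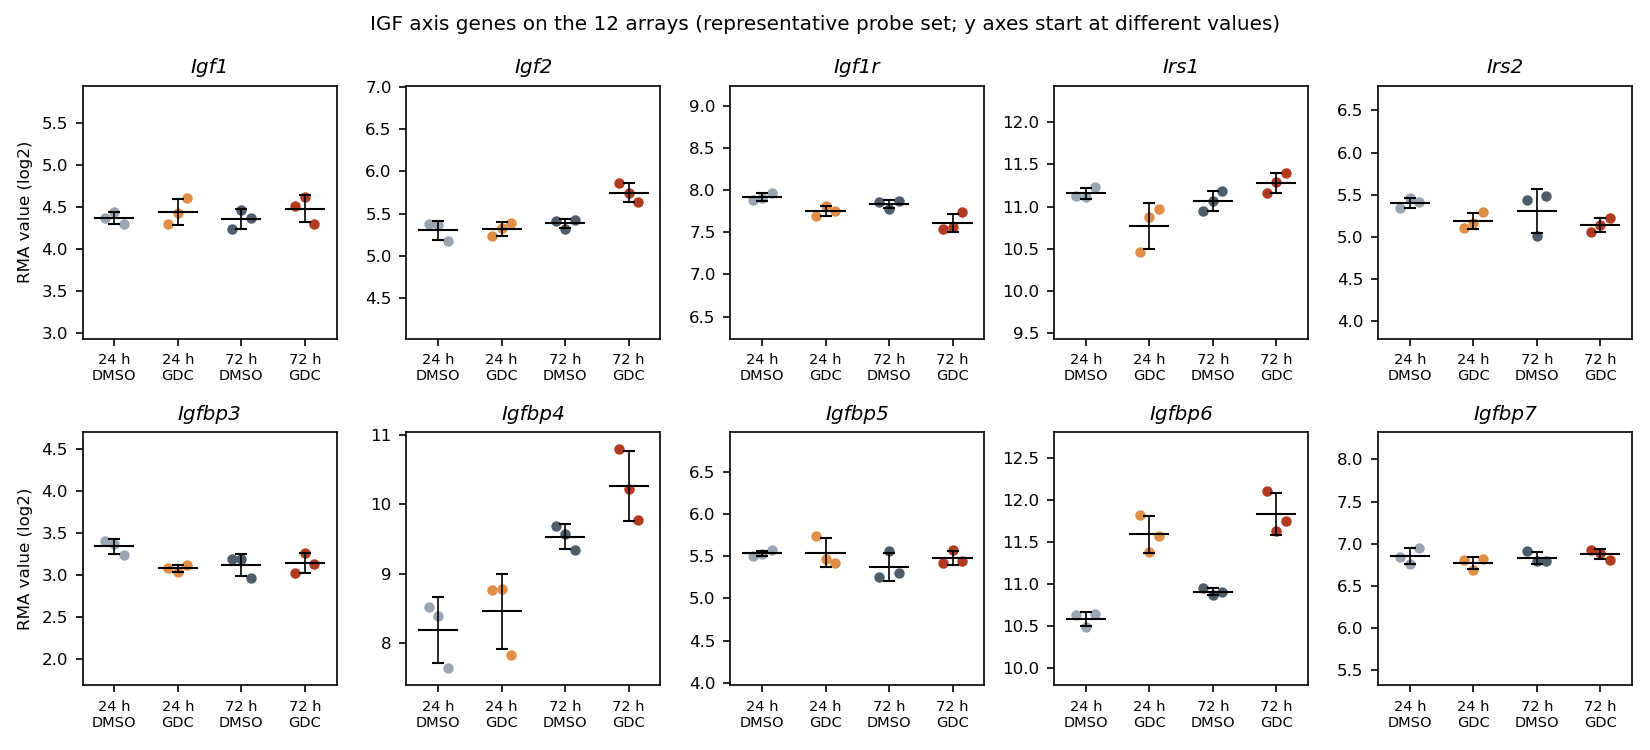
RMA values (log2) of the 10 members on the 12 arrays, 1 panel per gene, with points for arrays, horizontal lines for group means and bars for the standard deviation (n = 3), and y axes that start at different values. Igfbp6 is higher with GDC-0623 at both times, Igfbp4 is higher at 72 h than at 24 h, and Igf1, Igfbp5 and Igfbp7 lie at about the same level in all 4 groups on these probe sets.

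The ligand Igf1, a circulating growth factor made mainly by liver and by stromal cells, was dim on every array. Its brightest probe set read 4.37, 4.44 and 4.30 in the 3 DMSO arrays at 24 h, and 4.30, 4.42 and 4.60 with GDC-0623. In the 72 h cultures it read 4.23, 4.46 and 4.37 in DMSO, and 4.51, 4.62 and 4.30 with GDC-0623. The groups overlapped, and the drug difference was 0.07 ± 0.09 (SE) at 24 h and 0.12 ± 0.10 at 72 h (adjusted p = 0.659 and 0.480). The other 3 Igf1 probe sets were dimmer, between 2.47 and 3.54, and none was called in any comparison.

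Igf2, the ligand expressed mainly in fetal tissue and in some tumors, was higher after 72 h with GDC-0623, though under 6 on every array. Its values were 5.37, 5.36 and 5.17 in DMSO and 5.23, 5.33 and 5.39 with GDC-0623 at 24 h. By 72 h it read 5.41, 5.32 and 5.42 in DMSO and 5.86, 5.74 and 5.64 with GDC-0623. All 3 late treated arrays lay above the other 9, while the other groups overlapped. The difference at 72 h was 0.36 ± 0.08 (1.29-fold, adjusted p = 0.0148), and at 24 h it was 0.02 ± 0.08 (adjusted p = 0.922). The second Igf2 probe set, dim at 3.03 to 3.28, differed by 0.02 at 72 h with a 95% interval of −0.14 to 0.18. Without DMSO replicate 2 the 72 h difference was 0.33 and was not called (adjusted p = 0.0646). With the mean of both probe sets it was 0.19 (adjusted p = 0.0533, in a range of 0.00432 to 0.0646 over 13 alternatives).

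Igf1r, the receptor, was slightly lower with the inhibitor, without passing the test. It read 7.88, 7.91 and 7.97 in DMSO and 7.70, 7.81 and 7.75 with GDC-0623 at 24 h. After 72 h the values were 7.86, 7.78 and 7.87 in DMSO and 7.54, 7.57 and 7.74 with GDC-0623. The treated arrays lay below the DMSO arrays at both times. The differences were −0.17 ± 0.07 at 24 h (adjusted p = 0.137) and −0.22 ± 0.08 at 72 h (adjusted p = 0.102). The 4 other Igf1r probe sets differed by −0.30 to 0.02 at 24 h and by −0.17 to −0.01 at 72 h, and none was called. With arrays shifted by their hybridization controls, the 24 h difference of the brightest was −0.02 (adjusted p = 0.953). The third brightest Igf1r probe set fell by 0.35 from 24 h to 72 h in DMSO (adjusted p = 0.0394), whereas the brightest one differed by −0.08 (adjusted p = 0.455).

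Irs1, the adaptor that couples the receptor to PI3K, lay lower with the drug at 24 h and higher at 72 h, neither difference passing the test. In the early cultures it read 11.13, 11.11 and 11.23 in DMSO and 10.46, 10.87 and 10.97 with GDC-0623. The 72 h arrays read 10.95, 11.07 and 11.19 in DMSO and 11.16, 11.29 and 11.40 with GDC-0623. All treated arrays lay below DMSO at 24 h, while at 72 h 1 treated array lay below the highest DMSO array. The difference was −0.39 ± 0.12 at 24 h (adjusted p = 0.0585) and 0.21 ± 0.10 at 72 h (adjusted p = 0.165), with a 24 h value of −0.24 after the shift by hybridization controls. The 24 h value crossed the threshold in 6 of 13 alternatives, among them 1 fit over all 12 arrays (adjusted p = 0.0370) and the omission of 24 h GDC-0623 replicate 3 (−0.49), with adjusted p of 0.0332 to 0.213. The difference between the times was 0.60 ± 0.17 and missed the threshold (adjusted p = 0.0874), and it passed with the replicate number as a block (adjusted p = 0.0201).

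Irs2, the other adaptor, read 5.34, 5.46 and 5.41 in DMSO and 5.10, 5.16 and 5.29 with GDC-0623 at 24 h. In the late cultures it read 5.44, 5.01 and 5.48 in DMSO and 5.05, 5.14 and 5.22 with GDC-0623. The groups were separate at 24 h (−0.22 ± 0.08, adjusted p = 0.0823) and overlapped at 72 h (−0.17 ± 0.13, adjusted p = 0.408). The 24 h difference was called with the filter on dim probe sets (adjusted p = 0.0325) and was −0.07 after the shift by hybridization controls.

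Among the binding proteins, Igfbp6 showed the clearest response to the inhibitor. Its 1 probe set read 10.63, 10.49 and 10.64 in DMSO and 11.82, 11.38 and 11.57 with GDC-0623 at 24 h. At the later time it read 10.95, 10.87 and 10.90 in DMSO and 12.11, 11.63 and 11.75 with GDC-0623. No treated array overlapped a DMSO array of either time. Igfbp6 was 2.00-fold higher at 24 h (1.00 ± 0.11, adjusted p = 0.000318) and 1.90-fold higher at 72 h (0.92 ± 0.12, adjusted p = 0.000859). The order of the group means was 24 h DMSO (10.59), 72 h DMSO (10.91), 24 h GDC-0623 (11.59) and 72 h GDC-0623 (11.83), and the 2 treated groups overlapped. The difference between the 2 drug effects was −0.08 with a 95% interval of −0.45 to 0.29.

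Igfbp4, a binding protein that the protease PAPP-A cleaves, rose with time in culture and lay higher again with GDC-0623 at 72 h. Its brightest probe set read 8.52, 8.39 and 7.64 in DMSO and 8.76, 8.78 and 7.83 with GDC-0623 at 24 h. The late arrays read 9.69, 9.57 and 9.34 in DMSO and 10.79, 10.22 and 9.78 with GDC-0623. Replicate 3 was the lowest array of each group, and the early groups overlapped. The group means were 8.18 in DMSO and 8.46 in treated cells at 24 h, then 9.53 and 10.26 at 72 h, and each step beyond the first separated the arrays. The drug difference was 0.27 ± 0.28 at 24 h (adjusted p = 0.574) and 0.73 ± 0.22 at 72 h (1.66-fold, adjusted p = 0.0433).

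The 72 h call of Igfbp4 was a narrow one. The other 5 probe sets differed by 0.45 to 0.68, and none of them was called (adjusted p of 0.0850 to 0.211). Without GDC-0623 replicate 1, the array that stood apart, the difference was 0.47 (adjusted p = 0.0818). The call was also lost without GDC-0623 replicate 2 (0.75) and without DMSO replicate 1, 2 or 3 (0.81, 0.75 and 0.63). It was lost as well in 1 fit over all 12 arrays (adjusted p = 0.0844), with a trended and robust prior (adjusted p = 0.0566) and for the mean of its probe sets (0.56, adjusted p = 0.0923), so in 8 of 13 alternatives, over which its adjusted p ran from 0.00628 to 0.139.

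**Figure D2:**
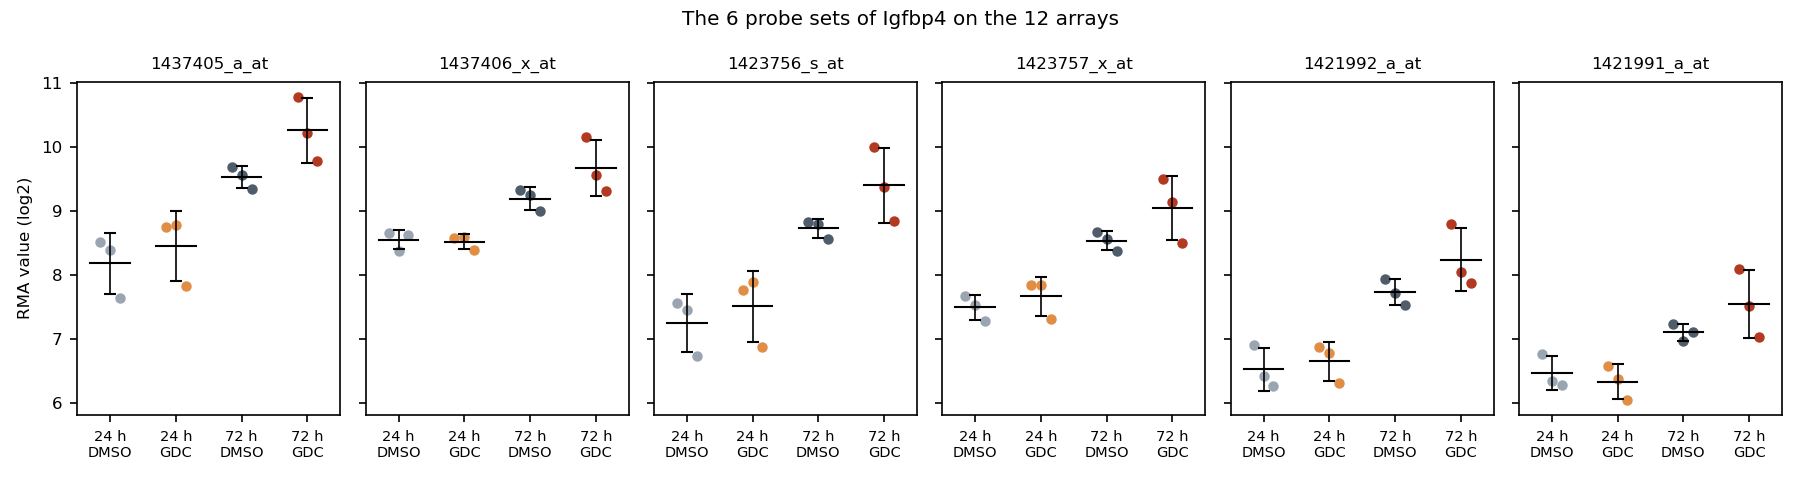
RMA values (log2) of the 6 probe sets of Igfbp4 by group, with points for arrays, horizontal lines for means and bars for the standard deviation (n = 3). Every probe set is higher at 72 h than at 24 h in both DMSO and GDC-0623, and the drug groups at 72 h overlap in 4 of the 6.

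Igfbp5, a binding protein of the matrix of connective tissue, and Igfbp7, a secreted protein of vessels and stroma, each gave different answers on different probe sets. The brightest Igfbp5 probe set lay between 5.25 and 5.74 on all arrays and differed by 0.01 at 24 h and by 0.11 at 72 h, with a 95% interval of −0.12 to 0.33 at 72 h. The second Igfbp5 probe set read 2.82, 3.26 and 3.05 in DMSO and 3.25, 3.00 and 3.46 with GDC-0623 at 24 h. The values at 72 h were 3.37, 3.08 and 3.11 in DMSO and 5.07, 4.43 and 3.92 with GDC-0623. The late treated arrays stood above all others, with a difference of 1.29 ± 0.24 (2.44-fold, adjusted p = 0.00521), and it was 0.99 without GDC-0623 replicate 1 (adjusted p = 0.00552).

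The brightest Igfbp7 probe set lay between 6.69 and 6.95 on all 12 arrays and differed by −0.08 at 24 h and by 0.04 at 72 h, with a 95% interval of −0.13 to 0.22 at 72 h. The second Igfbp7 probe set read 3.61, 3.65 and 3.72 in DMSO and 4.37, 4.01 and 4.52 with GDC-0623 at 24 h. Later, at 72 h, it read 4.01, 3.53 and 3.70 in DMSO and 7.27, 6.02 and 5.68 with GDC-0623. It was 1.56-fold higher at 24 h (0.64 ± 0.12, adjusted p = 0.00564) and 5.97-fold higher at 72 h (2.58 ± 0.34, adjusted p = 0.000971). The late difference was 2.10 without GDC-0623 replicate 1 (adjusted p = 0.000181). The early call was lost in 1 fit over all 12 arrays (adjusted p = 0.174, the highest over its 12 alternatives). The lowest, 1.19e-08, came from the shift by hybridization controls, where standard errors were nearly the same across members at 24 h.

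Both of these second probe sets were singled out after their values were seen. By their names, each Igfbp5 probe set can match more than 1 transcript, the brightest as well as the second. So can the brightest ones of Igfbp3 and Igf1. The same holds for all Igfbp4 probe sets, whose names end in a_at, s_at or x_at. The third Igfbp7 probe set stayed at 2.94 to 3.47 and differed by 0.08 at 72 h. Which transcript forms the probe sets detect is not given in the sources used here, so the disagreement within Igfbp5 and Igfbp7 could not be resolved.

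**Figure D3:**
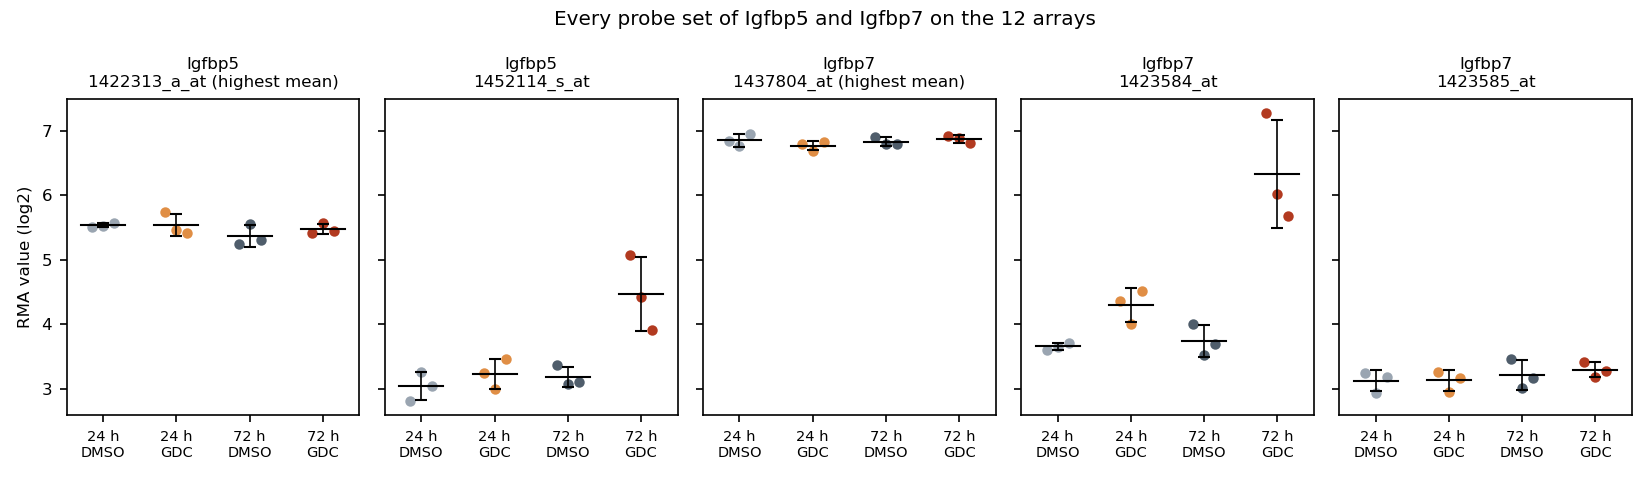
RMA values (log2) of the probe sets of Igfbp5 and Igfbp7 by group, with points for arrays, horizontal lines for means and bars for the standard deviation (n = 3). The brightest probe set of each gene lies at about the same level in all groups, and a dimmer one of each is higher in the 3 late GDC-0623 arrays.

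Igfbp3, the main carrier of IGFs in blood, was at the dim end of the array. It read 3.40, 3.37 and 3.24 in DMSO and 3.08, 3.03 and 3.12 with GDC-0623 at 24 h. In the 72 h cultures it read 3.19, 3.19 and 2.96 in DMSO and 3.02, 3.26 and 3.13 with GDC-0623. It was called lower at 24 h (−0.26 ± 0.07, adjusted p = 0.0366), and its second probe set differed by −0.02 (adjusted p = 0.885). The call was lost in 11 of 12 alternatives, 5 of them the omission of 1 array (DMSO replicate 1 or 2, or GDC-0623 replicate 1, 2 or 3), with values of −0.31 to −0.11 and adjusted p of 0.0388 to 0.639.

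Some marker transcripts of fibroblasts and of contractile cells were higher with GDC-0623, as Igfbp6 was, while others were not called. Of 7 fibroblast markers, 3 were higher at 24 h and 5 at 72 h, where 13.3% and 13.8% of all genes were. Their mean level over the arrays was 6.28 to 6.48 in 24 h DMSO, 6.90 to 7.09 in 24 h GDC-0623, 6.80 to 6.90 in 72 h DMSO and 7.97 to 8.24 in 72 h GDC-0623. Pdgfra, Pdgfrb, Col1a2 and Dcn reached a mean of 6 over the 12 arrays, whereas Thy1 stayed at 3.98 to 4.20. Of 6 smooth muscle and pericyte markers, 2 (Acta2 and Tagln) were higher at each time, while Cnn1, Myh11, Des and Rgs5 were not called at either. The mean of this list ran from 4.60 to 4.73 in 24 h DMSO, 5.16 to 5.34 in 24 h GDC-0623, 4.62 to 4.69 in 72 h DMSO and 5.28 to 5.52 in 72 h GDC-0623. The part of these marker transcripts in the binding protein results was not tested. None of the measured leukocyte (5), endothelial (4), adipocyte (3) or hepatocyte (3) markers reached that mean or was called at either time, and Krt8 was the 1 epithelial marker called (−0.40 at 72 h, adjusted p = 0.0133).

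Igfbp4 rose with time in culture in DMSO and in GDC-0623 alike, on every probe set. From 24 h to 72 h in DMSO, 2 members were higher and none was lower, where 8.41% of all genes were higher and 5.14% lower. At an unadjusted p under 0.05, 1 member (Igfbp3) was lower, where 14.5% of all genes were. Igfbp4 rose by 1.35 ± 0.21 (2.55-fold, adjusted p = 0.00604) and Igfbp6 by 0.32 ± 0.07 (adjusted p = 0.0198). All 6 Igfbp4 probe sets rose in DMSO, by 0.64 to 1.48. The Igfbp6 rise was lost in 1 fit over all 12 arrays (adjusted p = 0.131, in a range of 0.000270 to 0.131) and without 24 h DMSO replicate 2, or 72 h DMSO replicate 1 or 3 (0.27, 0.30 and 0.32).

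In the GDC-0623 cultures, 3 members were higher at 72 h than at 24 h and none was lower, where 5.79% of all genes were higher and 3.11% lower. At an unadjusted p under 0.05, no member was lower, where 14.8% of all genes were. Igfbp4 rose by 1.81 ± 0.29 (3.50-fold, adjusted p = 0.00683), Igf2 by 0.43 ± 0.09 (adjusted p = 0.0204) and Irs1 by 0.52 ± 0.13 (adjusted p = 0.0474). All 6 Igfbp4 probe sets rose here as well, by 1.16 to 1.89. The second probe sets of Igfbp5 and Igfbp7 rose by 1.24 (adjusted p = 0.0176) and 2.02 (adjusted p = 0.00832), calls that were lost without 24 h GDC-0623 replicate 2 (1.12 and 1.88) and, for Igfbp5, also without replicate 1 (1.24). The Irs1 call was lost without any one of the 6 arrays (0.36 to 0.62), and the Igf2 call without 24 h GDC-0623 replicate 1, 2 or 3 (0.39, 0.44 and 0.47), after the shift by hybridization controls (0.32, adjusted p = 0.0694) and for the mean of its probe sets (0.22, adjusted p = 0.0985).

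No member was called for a difference between the 72 h and the 24 h drug effect, where 1.62% of all genes had a higher effect at 72 h and 1.46% a lower one. At an unadjusted p under 0.05, 3 members had a higher effect at 72 h, namely Igf2 (0.35), Irs1 (0.60) and Igfbp3 (0.28), where 7.55% of all genes did. With the replicate number as a block, Irs1 was called (adjusted p = 0.0201). The second Igfbp7 probe set did pass this test (1.94 ± 0.41, adjusted p = 0.0258), and the second Igfbp5 probe set did not (1.09 ± 0.31, adjusted p = 0.101), except without 72 h GDC-0623 replicate 3 (1.37, adjusted p = 0.0125). The Igfbp7 call was lost without 24 h DMSO replicate 1, 2 or 3, 72 h DMSO replicate 2 or 3, or 24 h GDC-0623 replicate 1 or 2 (1.79 to 1.97).

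**Figure D4:**
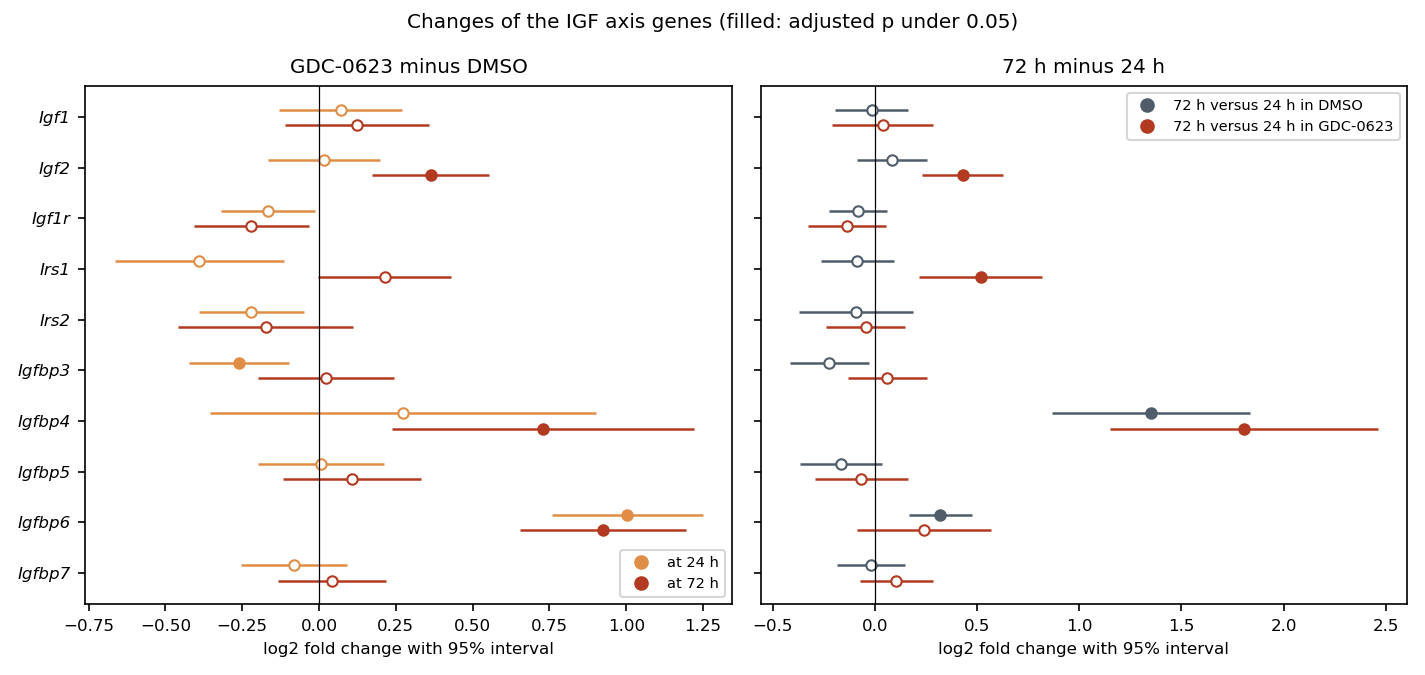
Log2 fold changes of the 10 members on their brightest probe sets, for GDC-0623 against DMSO at 24 h and 72 h (left) and for 72 h against 24 h in DMSO and in GDC-0623 (right), with 95% intervals of the limma fit and filled points for an adjusted p under 0.05. Igfbp6 lies near 1 with the drug at both times, and Igfbp4 lies at 1.35 and 1.81 with time.

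The genes whose profile over the 12 arrays was most like that of Igfbp4, among 9483 genes with a mean of at least 6 in a group, were Smad3 (Pearson r = 0.975), Zfp292 (0.971) and Irf2bpl (0.963). For Igfbp6 they were Prr13 (0.994), Scrn1 (0.994) and Ssbp2 (0.992). The arrays share group, time and replicate structure, so these values describe likeness over 12 arrays only. The drug differences of the genes like Igfbp6 were 0.69 and 0.70 for Prr13, 0.92 and 0.97 for Scrn1, and 0.99 and 1.06 for Ssbp2 at 24 h and 72 h. Those of the genes like Igfbp4 were 0.04 and 0.07 for Smad3, −0.01 and 0.08 for Zfp292, and 0.17 and 0.13 for Irf2bpl. Igfbp4 itself differed by 0.27 and 0.73, so the likeness to it did not extend to the drug difference at 72 h.

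Beyond the members, 81 genes of the wider pathway were listed, of which 74 were measured. The other 7 were not analysed here. With GDC-0623, 14 were higher and 9 lower at 24 h (18.9% and 12.2% of the 74), and 13 were higher and 14 lower at 72 h (17.6% and 18.9%). Of all genes, 13.3% were higher and 8.23% lower at 24 h, and 13.8% and 12.4% at 72 h. These shares also stand behind the drug counts of each list below. When each array was shifted by its hybridization controls, the 24 h counts became 22 higher and 2 lower. The 72 h counts became 12 and 11. That shift raised the median drug difference of all probe sets by 0.15 at 24 h and 0.01 at 72 h. The shares of all genes under it are not given, so these shifted counts have no background here.

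Among the receptors, no drug difference was called. Insr, the insulin receptor, differed by 0.19 at 24 h and by −0.16 at 72 h (adjusted p = 0.108 and 0.199), and Igf2r, which clears IGF-2, differed by 0.09 and 0.12 (adjusted p = 0.416 and 0.432). The third measured receptor gene, Insrr, was not called either. In DMSO, Insr rose by 0.59 from 24 h to 72 h (adjusted p = 0.00144) and Igf2r by 0.32 (adjusted p = 0.0114). With GDC-0623, Igf2r differed by 0.35 over the same time and was not called in the main fit (adjusted p = 0.0566). It was called with replicate number as a block (adjusted p = 0.0460) and in 1 fit over all 12 arrays (adjusted p = 0.00947). The filter on dim probe sets, repeated quantile normalization, a trended and robust prior and the omission of 72 h GDC-0623 replicate 2 also gave a call. Its adjusted p ran from 0.00947 to 0.183 over 13 alternatives. Among 6 other ligands and binding proteins, 1 was lower at 24 h, the dim Igfbp1 (−0.39, adjusted p = 0.0142), named after its values were seen and not called without DMSO replicate 2 (−0.34) or after the shift by hybridization controls (−0.24, adjusted p = 0.221). The mean of all Insr probe sets differed by 0.12 over time in DMSO (adjusted p = 0.252).

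Proteases that cleave binding proteins and their inhibitors included 8 measured genes, of which 1 was higher and 1 lower at each time (12.5% each). Stc2, which encodes stanniocalcin-2, an inhibitor of PAPP-A, fell by 1.02 ± 0.10 at 24 h (adjusted p = 0.000180) and by 1.49 ± 0.20 at 72 h (adjusted p = 0.00112). Ctsd, the lysosomal protease cathepsin D, rose by 0.27 (adjusted p = 0.0278) and 0.46 (adjusted p = 0.0129). Its 24 h call was lost without any array but GDC-0623 replicate 2 (0.23 to 0.30) and in 1 fit over all 12 arrays (adjusted p = 0.0554), and its 72 h call without DMSO replicate 2 (0.42). Pappa, which encodes PAPP-A itself, was dim, with group means of 4.81 to 4.94, and Pappa2, with means of 3.69 to 3.90, was dimmer. Neither was called (adjusted p = 0.984 and 0.986 for Pappa, 0.779 and 0.118 for Pappa2).

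Of 20 adaptors and regulators close to the receptor, 2 were higher and 1 lower at 24 h (10% and 5%, under the shares of all genes). At 72 h, 3 were higher and 4 lower (15% and 20%). Socs2, an inhibitor of growth hormone signaling, rose by 0.91 ± 0.16 at 24 h (adjusted p = 0.00478) and by 1.63 ± 0.17 at 72 h (adjusted p = 0.000240). Grb10, an adaptor that restrains the insulin and IGF receptors, rose by 0.79 ± 0.09 at 24 h (adjusted p = 0.000402) and stood at 0.00 at 72 h. Socs1, a cytokine signaling inhibitor, fell by 0.47 at 24 h (adjusted p = 0.00136, and 0.0688 after the shift by hybridization controls) and was higher by 0.40 at 72 h (adjusted p = 0.00831). Sos2, a RAS exchange factor, fell by 0.46 at 72 h (adjusted p = 0.00629).

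In the PI3K and AKT list of 16 genes, 5 were higher and 2 lower at 24 h (31.2% and 12.5%). At 72 h, 4 were higher and 3 lower (25% and 18.8%). The PI3K regulatory subunits Pik3r1 and Pik3r3 rose by 0.53 and 0.91 at 24 h (adjusted p = 0.000773 and 0.000192) and by 0.90 and 1.54 at 72 h (adjusted p = 0.00111 and 0.000221). Pik3ip1, an inhibitor of PI3K, rose by 0.66 at 24 h (adjusted p = 0.00422) and by 1.85 at 72 h (adjusted p = 0.000516). Akt1 differed by −0.07 and 0.06 with the drug (adjusted p = 0.524 and 0.680) and fell by 0.41 with time in DMSO (adjusted p = 0.00687).

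FoxO factors are transcription factors that AKT keeps out of the nucleus. Of 3 measured, Foxo1 and Foxo3 rose at 24 h by 0.30 and 0.28 (adjusted p = 0.0329 and 0.0474), and at 72 h they differed by 0.20 and 0.24 without a call (adjusted p = 0.253 and 0.0935). The 24 h call of Foxo1 was lost without GDC-0623 replicate 1 or 2, and without replicate 2 or 3 of DMSO (0.24 to 0.31), in 1 fit over all 12 arrays (adjusted p = 0.0531) and with repeated quantile normalization (adjusted p = 0.0896). That of Foxo3 was lost without any array but GDC-0623 replicate 3 (0.23 to 0.33), with repeated quantile normalization (adjusted p = 0.0782) and for the mean of its probe sets (adjusted p = 0.0870). Among 18 genes of the mTOR complexes, S6 kinase and their regulators, 4 were higher and 4 lower at 24 h (22.2% each). At 72 h, 5 were higher and 6 lower (27.8% and 33.3%). Sesn1 and Sesn3, sestrins that restrain mTORC1, rose by 0.78 and 1.10 at 24 h (adjusted p = 0.000660 and 0.000969) and by 0.64 and 1.08 at 72 h (adjusted p = 0.000561 and 0.00318). Sgk1, a kinase activated by mTORC2, fell by 1.16 and 0.99 (adjusted p = 7.86e-05 and 0.0152), the later call being lost without DMSO replicate 1 or 2 (−0.88 and −0.92).

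Ddit4, an mTORC1 inhibitor induced by stress, had the largest time change of these named pathway genes in DMSO, 2.12 (adjusted p = 0.000126). With GDC-0623 it differed by 0.40 at 24 h (adjusted p = 0.107) and fell by 0.88 at 72 h (adjusted p = 0.00209). With time in DMSO, 15 of the 74 genes were higher and 8 lower (20.3% and 10.8%), where 8.41% and 5.14% of all genes were. With the replicate number as a block, 5 were lower. With time in GDC-0623, 7 were higher and 4 lower (9.46% and 5.41%), where 5.79% and 3.11% of all genes were, and 12 were higher with the block. The drug effect differed between the times for 7 of the 74 genes. Of these, 3 had a higher and 4 a lower effect at 72 h (4.05% and 5.41%), where 1.62% and 1.46% of all genes did.

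**Figure D5:**
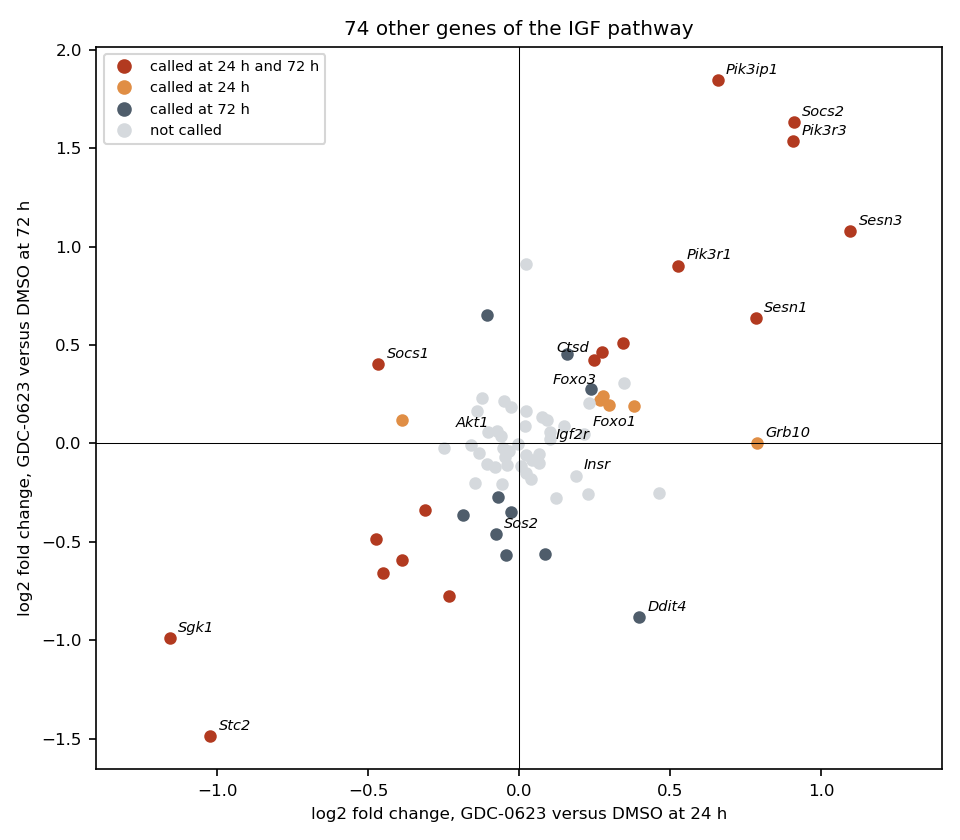
Log2 fold changes of the 74 other pathway genes for GDC-0623 against DMSO, at 24 h on the horizontal and at 72 h on the vertical axis, with colors for genes called at both times, at 24 h, at 72 h or at neither. Pik3ip1, Socs2, Pik3r3 and Sesn3 lie high at both times, Stc2 and Sgk1 low at both, and Grb10 and Ddit4 away from the diagonal.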

How the data were processed

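RNA from 12 MC38 cultures was hybridized to one-color Affymetrix mouse GeneChip arrays after 3′ amplification. The deposited values are log2 expression values per probe set, which the authors made by RMA (background correction, quantile normalization, summary of the probes); the notes of the submitters name RMA as well. The version of RMA is not given in the sources used here, nor is a joint normalization with other arrays. A shift common to most genes is lost in the quantile step. The number of arrays limits the precision.

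Of 45101 probe sets, 64 controls were left out. Each of 18193 genes was represented by its single-symbol probe set with the highest mean over the 12 arrays, through the platform annotation. Groups came from the labels. Each comparison of 2 groups was fitted on its 6 arrays, and the difference of the effects on all 12, with limma 3.58.1 in R 4.3.3 (lmFit and eBayes, two-sided), with Benjamini-Hochberg adjustment over all 45037 probe sets and a threshold of 0.05. Errors are standard errors of the fit, with 95% intervals. The labels call the replicates biological without saying how the cultures were separated. No 2 arrays were duplicates (at most 1440 of 45037 values were identical).

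All members were named, with up to 3 called genes per list and drug comparison by size of change (mean of at least 6 in the higher group), plus Insr, Igf2r, Pappa, Pappa2, Foxo1 and Akt1. The members and lists were chosen with earlier results of these data known. Deviations of same-numbered replicates correlated weakly to moderately at 72 h (0.115, 0.177 and 0.192), over time in DMSO (0.241, 0.312 and 0.175) and over time in GDC-0623 (0.491, 0.173 and 0.340). The main fits used group only and no pairing, and the replicate number entered as a block only in an alternative. The fits were tested on simulated data. Alternatives were 1 fit over all arrays, the replicate block, a filter on dim probe sets (5 or more on 3 or more arrays), a repeated quantile step, a shift by hybridization controls, a trended and robust prior, the mean of a gene's probe sets and the omission of each array. Figures were drawn with matplotlib 3.10.9 in Python 3.11.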

Additional observations from a re-analysis of the deposited data

Results flagged for a closer look

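The effect of GDC-0623 differed between 24 h and 72 h, by the contrast on all 12 arrays, for 1 probe set of a member and for 7 other genes of the pathway. Of all genes, 1.62% had a higher effect at 72 h and 1.46% a lower one. The second probe set of Igfbp7 had an effect larger by 1.94 at 72 h (0.64 and 2.58, limma adjusted p = 0.0258), while the brightest Igfbp7 probe set differed by 0.12 (adjusted p = 0.652). The call was lost with a trended and robust prior and without 24 h DMSO replicate 1, 2 or 3, 72 h DMSO replicate 2 or 3, or 24 h GDC-0623 replicate 1 or 2 (1.79 to 1.97, with adjusted p of 0.00319 to 0.0790 over all 17 alternatives).

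Socs1 changed from lower to higher, with a difference of 0.87 (adjusted p = 0.000422), and all 3 treated arrays lay below DMSO at 24 h and above it at 72 h. Grb10 had a lower effect at 72 h by −0.79 (adjusted p = 0.00262), which was −0.29 and not called for the mean of its probe sets (adjusted p = 0.109, the highest over 18 alternatives, the lowest being 0.000205). Ddit4 had a lower effect at 72 h by −1.28 (adjusted p = 0.00783). Pik3ip1 had a higher effect by 1.19 (adjusted p = 0.0408), a call that was lost without any one of 9 arrays, namely 24 h DMSO replicate 1 or 2, each of 72 h DMSO, each of 24 h GDC-0623 and 72 h GDC-0623 replicate 3 (values of 1.08 to 1.26), and with a trended and robust prior (adjusted p = 0.0511).

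The genes Grb14, Pik3cb and Eif4ebp1 were named after their values were seen. Grb14, a receptor-binding adaptor that was dim, had a higher effect by 0.76 (adjusted p = 0.0133), which was 0.33 and not called for the mean of its probe sets (adjusted p = 0.155). Pik3cb, a catalytic PI3K subunit, had a lower effect by −0.65 (adjusted p = 0.0248), a call lost without 24 h DMSO replicate 1, 2 or 3, 72 h DMSO replicate 2 or 3, or 24 h GDC-0623 replicate 2 or 3. Eif4ebp1, a repressor of translation, had a lower effect by −0.54 (adjusted p = 0.0476), a call lost with the replicate block and without any one of 9 arrays, each of 24 h DMSO, 72 h DMSO and 24 h GDC-0623. What these differences come from was not tested.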

How the results depend on the processing

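The drug calls of Igfbp6 held under all 13 alternatives at both times, as did the time calls of Igfbp4. When arrays were shifted by hybridization controls, 2 members were higher and 0 lower at 24 h (Igfbp4 at 0.42, adjusted p = 0.00732, in a range to 0.999). Under this shift the standard error of Igfbp4 at 24 h was 0.13, against 0.28 in the main fit. Igf1r, Irs1 and Igfbp6 had nearly the same one, 0.13, so these adjusted p do not follow the spread of each gene. The pathway counts at 24 h were 22 higher and 2 lower, and over time 3 pathway genes were lower in DMSO and 10 in GDC-0623. Shares of all genes under this shift are not given here. Repeated quantile normalization gave 0 members lower at 24 h, and the filter on dim probe sets gave 3 lower at 24 h (Igf1r, Irs1 and Irs2) and 1 at 72 h (Igf1r), dropped Igf1 and Igfbp3, and gave 8 pathway genes lower over time in GDC-0623. The mean of all probe sets gave 2 members lower at 24 h, and over time in GDC-0623 11 pathway genes higher and 2 lower; it turned Igfbp5 over time in GDC-0623 to 0.585 (from −0.07), and put Igfbp5 and Igfbp7 at 0.70 and 0.90 at 72 h, both called. The fit over all 12 arrays gave 1 member lower at 72 h, 1 higher over time in DMSO, and 12 pathway genes higher and 8 lower over time in GDC-0623. The cause of these changes was not tested.

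With the replicate block, 1 member, Irs1, had a called difference of effects (0.60, adjusted p = 0.0201, in a range to 0.189); 5 pathway genes were lower over time in DMSO and 12 higher over time in GDC-0623. At 24 h the correlations of same-numbered replicates were 0.253, 0.281 and 0.0858, the last of them lower than any at 72 h.

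Without 1 array at a time, members lower at 24 h were 0 to 1, members higher at 72 h 1 to 3, over time in DMSO 1 to 2 and in GDC-0623 1 to 2. Pathway genes were 9 to 14 higher and 5 to 8 lower at 24 h, 8 to 13 higher and 9 to 14 lower at 72 h, 4 to 6 lower over time in DMSO, 2 to 4 lower over time in GDC-0623, and for the difference of effects 2 to 5 higher and 2 to 5 lower. A value that changed sign without a call in either setting was counted as unchanged. Dim probe sets limit what can be seen of Igf1 and Igfbp3. Igf2, Irs2 and the brightest Igfbp5 probe set also lay under 6 on every array, the level under which the epithelial markers were read as low or absent.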
